A study of Mus musculus with 8 samples.

Results

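The Tcstv genes are a small family of genes related in sequence, in a tandem array at the end of mouse chromosome 13. 4 of them were taken by symbol, and all 4 were found among the 55573 genes of the deposited table: Tcstv1 (ENSMUSG00000096284), Tcstv3 (ENSMUSG00000095821), AF067061 (ENSMUSG00000095071) and AF067063 (ENSMUSG00000094237). Their symbols came from matching the table's identifiers to GENCODE M21. The choice by symbol used no measured value, but it was made with earlier results of these data known. All 4 passed the filter on low counts, which kept 20608 genes for testing.

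RNA carrying a poly(A) tail was sequenced in bulk from mouse embryonic stem cells (ESCs), in 8 libraries that fall into 4 groups of 2. Wild-type ESCs without treatment are named mESC. Untreated 2C::GFP+ cells carry a green fluorescent reporter named for the 2-cell-like state. The 2C::GFP+/SGC cells received 2 µM SGC0946, an inhibitor of the histone methyltransferase DOT1L, in a medium with serum replacement and the cytokine LIF. The 2C::GFP+/SA cells received 2 µM SGC0946 and 2 µM AS8351 (described as blocking the demethylase KDM5B), and IL6 with soluble IL6 receptor replaced LIF in their medium. The cytokine therefore changed together with the second compound, and the parts of these changes cannot be told apart. The labels name 2 media for ESCs and do not say which one mESC had, so medium and genotype cannot be told apart in comparisons with mESC. They also leave unsaid if the reporter was used for sorting, how long treatment lasted, and whether the libraries of a group came from separate cultures. Each p-value therefore measures only the spread between these libraries, which may be technical. 2 columns of the table match no label by name and were taken as untreated 2C::GFP+ because that was the group left over. Each comparison with 2C::GFP+ rests on this.

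Tcstv stands for 2-cell-stage variable group. In the mouse embryo these genes are transcribed when the zygotic genome is first activated, together with the Zscan4 genes, and in ESC cultures they mark the rare cells that pass through a 2-cell-like state. TCSTV1 and TCSTV3 are known for a part in telomere maintenance in ESCs, where they act on the telomere-binding protein TRF1, the product of Terf1. No such role is given here for AF067061 and AF067063, which are known as sequence relatives from the same array.

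On GRCm38 the 4 genes lie on chromosome 13 over 490.2 kb. AF067063 is at chr13:119827961-119830216 and Tcstv1 at chr13:119893388-119894785, both on the minus strand. AF067061 is at chr13:120263114-120264517 and Tcstv3 at chr13:120316878-120318178, both on the plus strand. Between AF067063 and Tcstv3, 23 genes are annotated, 10 of them protein coding, and 0 genes of the table lie beyond Tcstv3 on the chromosome. Each of the 4 has 2 annotated transcripts with the same coding sequence in 1 exon, and the spliced transcript adds a noncoding first exon. The coding sequences hold 171 codons in Tcstv1 and AF067061, 169 in Tcstv3 and 163 in AF067063, without the stop codon.

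The coding sequences of Tcstv1, Tcstv3 and AF067061 are close copies, and the first 180 bases show how little separates them. They are given 5′ to 3′ from the start codon, for Tcstv1 at chr13:119893915-119894094 (minus strand), for Tcstv3 at chr13:120317567-120317746 (plus strand) and for AF067061 at chr13:120263802-120263981 (plus strand), from GENCODE M21 on GRCm38. Capitals mark bases that differ from Tcstv1, 5 in Tcstv3 and 10 in AF067061.
Tcstv1: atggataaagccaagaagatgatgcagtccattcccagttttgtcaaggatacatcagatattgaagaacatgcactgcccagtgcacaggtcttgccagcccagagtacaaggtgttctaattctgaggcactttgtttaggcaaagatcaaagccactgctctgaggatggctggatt
Tcstv3: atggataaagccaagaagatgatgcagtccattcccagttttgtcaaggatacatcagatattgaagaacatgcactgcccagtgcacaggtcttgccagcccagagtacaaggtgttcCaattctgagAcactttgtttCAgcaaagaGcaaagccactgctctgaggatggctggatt
AF067061: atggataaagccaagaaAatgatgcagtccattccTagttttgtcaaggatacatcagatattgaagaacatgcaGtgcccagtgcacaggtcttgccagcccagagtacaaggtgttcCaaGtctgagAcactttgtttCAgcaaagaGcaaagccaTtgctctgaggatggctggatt

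AF067063 is the outlier in sequence. Its first 120 coding bases (chr13:119828539-119828658, minus strand) are shown against Tcstv1 bases 19 to 138, with the 33 bases that differ in capitals. Over the same block Tcstv3 has 2 differences from Tcstv1 and AF067061 has 5.
AF067063: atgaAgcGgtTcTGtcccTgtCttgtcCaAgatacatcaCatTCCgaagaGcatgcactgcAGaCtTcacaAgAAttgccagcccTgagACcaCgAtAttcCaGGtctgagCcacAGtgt

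Over whole coding sequences, with gaps counted as differences, Tcstv1 was 93.6% identical to Tcstv3 and 95.3% to AF067061, and Tcstv3 was 94.8% identical to AF067061. AF067063 was 77.3% identical to Tcstv1, 78.5% to Tcstv3 and 79.4% to AF067061. The closest relative of 3 of the 4 genes was a gene outside the set: Gm21761 for AF067061 (97.5%), Gm21818 for Tcstv1 (96.3%) and Gm21731 for AF067063 (90.4%). Tcstv3 was closest to AF067061.

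These likenesses bear on every value that follows, since a read that fits more than 1 copy cannot be given to 1 gene with certainty. All stretches of 31 bases in each gene's transcripts were compared with those of all other annotated genes. The share found in at least 1 other gene was 81.5% for AF067063, 51.0% for Tcstv3, 40.0% for AF067061 and 28.6% for Tcstv1. How reads with more than 1 match were counted is not given in the sources used here, so the level of a single member is uncertain, and the sum over members is given beside it. By the same measure, 6 genes of the array share over 5% of their own 31-base stretches with a member and are called relatives here: Gm21731 (80.6%), Gm21818 (48.0%), Gm21761 (36.2%), Gm20767 (26.6%), D13Ertd608e (11.8%) and Gm21762 (10.3%). The next genes below that limit were Gm8953 (4.35%) and B020031M17Rik (3.24%).

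Sequence upstream of the start was at hand for 1 of the 4 genes, AF067061, and for 1 relative, Gm21761, from RefSeq on GRCm38.p6. The 250 bases before each RefSeq start are shown because this was the only pair at hand. The windows are 92.4% identical (231 of 250 bases). They lie at chr13:120262845-120263094 (plus strand) for AF067061 and chr13:119913469-119913718 (minus strand) for Gm21761. The Gm21761 window is inside the GENCODE M21 gene (chr13:119912095-119929272), whose annotated start lies further upstream. Capitals mark TGATTCAAT, a match to TGATTNAAT, and the TATA-like TATATAAG.
AF067061: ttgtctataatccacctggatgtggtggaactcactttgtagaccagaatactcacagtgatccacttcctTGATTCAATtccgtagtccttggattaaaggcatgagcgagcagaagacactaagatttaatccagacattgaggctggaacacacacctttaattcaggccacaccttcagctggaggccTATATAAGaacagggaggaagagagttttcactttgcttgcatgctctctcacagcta
Gm21761: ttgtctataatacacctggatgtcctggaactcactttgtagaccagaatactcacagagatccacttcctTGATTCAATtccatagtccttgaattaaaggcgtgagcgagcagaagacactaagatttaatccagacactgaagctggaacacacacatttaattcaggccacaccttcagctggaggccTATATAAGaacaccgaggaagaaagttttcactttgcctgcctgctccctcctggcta

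TGATTNAAT is the first part of the motif known for DUX, the transcription factor that activates 2-cell-stage genes. Both strands were searched. TGATTNAAT begins 179 bases before the start in both windows and is in 0.658% of the 32851 RefSeq windows of that length, while the whole DUX motif, in 0.0304% of windows, is in neither. TATATAAG begins 58 bases before the start in both and is in 0.935% of windows, and it overlaps neither of the other motifs. A match is a description of the letters only.

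Library totals ran from 12299931 to 145810034 counts, with 7.46 to 9.62 times as many in replicate 1 as in replicate 2 of each group. Levels are CPM, counts set to the same total in each library with TMM factors, and a mean ± SD is over 2 libraries. TPM values, which also allow for gene length, are used to compare genes with each other.

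All 4 genes were close to silent in mESC, present in 2C::GFP+, between 2.04 and 2.83 times as high in mean level in 2C::GFP+/SGC, where none passed the test, and highest in 2C::GFP+/SA. The summed level was 0.379 and 0.770 CPM in the mESC libraries (replicates 1 and 2), 44.4 and 44.4 CPM in 2C::GFP+, 115.6 and 74.0 CPM in 2C::GFP+/SGC, and 1039 and 282 CPM in 2C::GFP+/SA. The ranges of the groups did not overlap at any step of that order. The libraries of a group were nearly equal in 2C::GFP+, but replicate 1 was 1.56 times replicate 2 in 2C::GFP+/SGC and 3.68 times in 2C::GFP+/SA. In bulk RNA a larger share of cells that express a gene and more RNA in each such cell cannot be told apart.

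**Figure D1:**
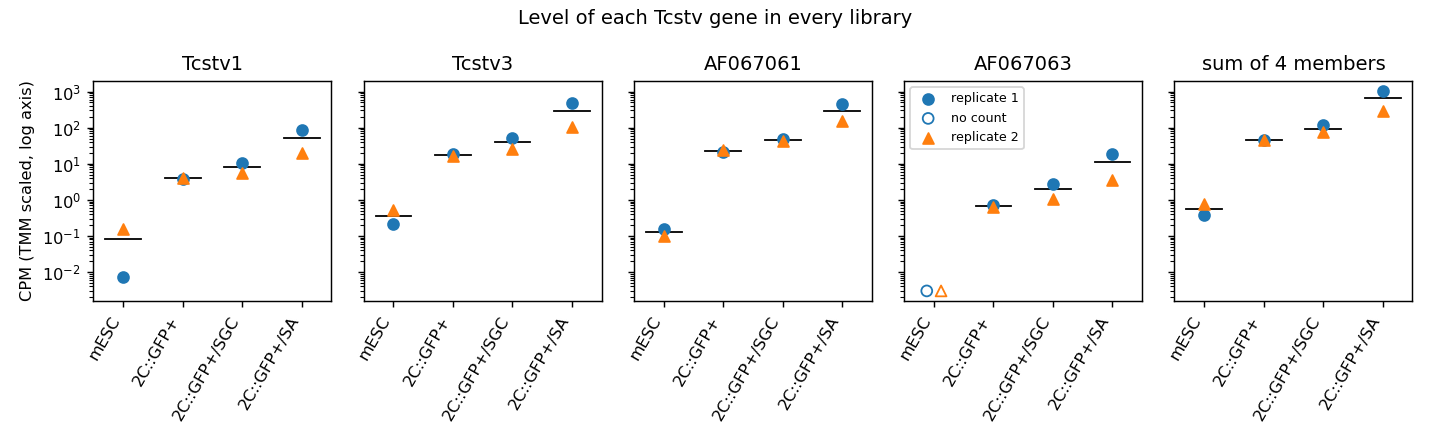
Level of each of the 4 Tcstv genes and of their sum in every library, in TMM-scaled CPM on a log axis, by group. Points are the 2 libraries of a group, bars are their mean, and open points at the bottom stand for no count. In each panel both 2C::GFP+/SA libraries lie above all others and both mESC libraries below all others.

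Tcstv3, 1 of the 2 members with a known part in telomere maintenance, had 30 and 10 counts in mESC (0.219 and 0.513 CPM), 18.9 and 16.3 CPM in 2C::GFP+, 52.8 and 25.1 CPM in 2C::GFP+/SGC and 494.8 and 102.7 CPM in 2C::GFP+/SA. Tcstv1, the other, was lower in every library, per length (TPM) as well. It had 1 and 3 counts in mESC (0.00729 and 0.154 CPM), 3.89 and 3.98 CPM in 2C::GFP+, 10.3 and 5.71 CPM in 2C::GFP+/SGC and 85.2 and 19.6 CPM in 2C::GFP+/SA. For both genes the SD in 2C::GFP+/SA was nearly as large as the mean: 299 ± 277 CPM for Tcstv3 and 52.4 ± 46.3 CPM for Tcstv1 (n = 2).

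AF067061 had 21 and 2 counts in mESC (0.153 and 0.103 CPM), 20.8 and 23.5 CPM in 2C::GFP+, 49.7 and 42.1 CPM in 2C::GFP+/SGC and 440.4 and 156.6 CPM in 2C::GFP+/SA. AF067063 was listed at 0 in both mESC libraries, where 3 counts would have been 0.0219 CPM (replicate 1) and 0.154 CPM (replicate 2). It had 0.718 and 0.653 CPM in 2C::GFP+, 2.80 and 1.09 CPM in 2C::GFP+/SGC and 18.7 and 3.54 CPM in 2C::GFP+/SA. AF067061 varied least between the libraries of a treated group, with 45.9 ± 5.31 CPM in 2C::GFP+/SGC and 298 ± 201 CPM in 2C::GFP+/SA (n = 2).

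Per length, the order was Tcstv3, AF067061, Tcstv1, AF067063 in all 6 libraries of reporter cells. In 2C::GFP+/SA the TPM values of replicates 1 and 2 were 1817 and 474 for Tcstv3, 897 and 401 for AF067061, 174 and 50.6 for Tcstv1 and 60.4 and 14.4 for AF067063. Within that group the TPM ranges of Tcstv3 and AF067061 overlapped, and those of AF067061 and Tcstv1 did not. In 2C::GFP+ the steps were clear of the spread: 77.0 and 73.5 TPM for Tcstv3, 46.9 and 58.6 TPM for AF067061, 8.81 and 9.98 TPM for Tcstv1 and 2.57 and 2.59 TPM for AF067063. By TPM, Tcstv3 ranked 68th and 309th among all genes in the 2C::GFP+/SA libraries, 645th and 1602nd in 2C::GFP+/SGC, 2450th and 2616th in 2C::GFP+, and 14563rd and 12215th in mESC.

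The first comparison asks how cells that carry the reporter differ from wild-type ESCs. All 4 genes were higher in 2C::GFP+ than in mESC, beside 15.2% of all tested genes called higher (edgeR quasi-likelihood test, Benjamini-Hochberg adjusted p under 0.05 over all tested genes). The log2 fold changes were 7.23 ± 0.79 for AF067061 (± SE, edgeR adjusted p = 0.00284), 7.08 ± 1.51 for Tcstv1 (0.0279) and 6.03 ± 1.30 for Tcstv3 (0.0362). For AF067063 the edgeR adjusted p was 0.0264, and its fold, with mESC at 0, was at least 37.1 against a floor of 3 counts over the group. Neither library of one group overlapped those of the other for any of the 4, which held in this direction for 33.9% of tested genes. The calls of Tcstv1, Tcstv3 and AF067063 ended when any of 5 libraries was left out, either of mESC, either of 2C::GFP+ or replicate 2 of 2C::GFP+/SGC (edgeR adjusted p 0.0794 to 0.220), and that of AF067061 ended without replicate 2 of mESC (0.0546). The size also rests on single mESC libraries: without replicate 1 the log2 fold change was 4.63 for Tcstv1, 5.09 for Tcstv3 and 7.70 for AF067061, and without replicate 2 it was 8.77, 6.32 and 7.15. The summed level was 77.3 times that of mESC by group means, 117 times within replicate 1 and 57.7 times within replicate 2.

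The second comparison sets reporter cells with SGC0946 beside untreated reporter cells, for which no medium is given here. A difference in medium cannot be told apart from the compound. None of the 4 genes passed the test, and neither did any of the 20608 tested genes (0.0% called higher), although 2037 genes (9.88%) had an unadjusted p under 0.05 and other fits called 0 or 1 of the 4. The log2 differences were 1.07 ± 0.82 for Tcstv1 (edgeR adjusted p = 0.723), 1.16 ± 0.86 for Tcstv3 (0.720), 1.06 ± 0.49 for AF067061 (0.559) and 1.58 ± 0.85 for AF067063 (0.590). Both 2C::GFP+/SGC libraries nevertheless lay above both 2C::GFP+ libraries for each gene, which was so for 24.3% of all tested genes. The summed level was 2.14 times that of 2C::GFP+ by group means, 2.61 times within replicate 1 and 1.67 times within replicate 2. AF067061, the member with the closest libraries, was called higher when replicate 1 of 2C::GFP+/SA was left out of the fit (edgeR adjusted p = 0.00592), when replicate 2 was (5.28e-06), and when only the 4 libraries compared were fitted (0.00173).

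The third comparison sets cells with SGC0946, AS8351 and IL6 with its receptor, without LIF, beside untreated reporter cells. The same limit on medium holds for it. All 4 genes were higher in 2C::GFP+/SA than in 2C::GFP+, beside 14.9% of tested genes called higher. The log2 fold changes were 3.76 ± 0.53 for AF067061 (edgeR adjusted p = 0.00635), 4.03 ± 0.89 for AF067063 (0.0176), 3.75 ± 0.87 for Tcstv1 (0.0316) and 4.08 ± 0.95 for Tcstv3 (0.0396). Both libraries of 2C::GFP+/SA lay above both of 2C::GFP+ for each gene, as for 32.4% of tested genes. The 4 estimates lay closer to each other than the SE of any of them, while within each gene the 2 treated libraries were far apart. With replicate 1 of 2C::GFP+/SA left out, the log2 fold changes were between 2.35 (Tcstv1) and 2.85 (AF067061), and with replicate 2 left out they were between 4.35 (AF067061) and 4.83 (Tcstv3), with all 4 genes called both ways. The calls of all 4 ended without either 2C::GFP+ library (edgeR adjusted p 0.0536 to 0.239). Those of Tcstv1, Tcstv3 and AF067063 ended without replicate 2 of mESC or of 2C::GFP+/SGC (0.0590 to 0.103), and that of Tcstv3 also without replicate 1 of mESC (0.0655). The summed level was 14.9 times that of 2C::GFP+ by group means, 23.4 times within replicate 1 and 6.36 times within replicate 2.

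Against 2C::GFP+/SGC, which shares SGC0946 but not AS8351 or the IL6 medium, AF067061 alone of the 4 was called higher in 2C::GFP+/SA, with a log2 fold change of 2.70 ± 0.51 (edgeR adjusted p = 0.0263), beside 7.92% of tested genes called higher. The differences of the others were 2.68 ± 0.82 for Tcstv1 (0.0979), 2.92 ± 0.90 for Tcstv3 (0.111) and 2.45 ± 0.80 for AF067063 (0.0936), about as large as that of AF067061 but with wider errors. Groups did not overlap for any of the 4, as for 28.7% of tested genes. The call of AF067061 ended without replicate 2 of mESC (edgeR adjusted p = 0.113), replicate 2 of 2C::GFP+ (0.115), or replicate 1 (0.0951) or 2 (0.234) of 2C::GFP+/SGC. Without a filter on low counts AF067061 lost its call (0.0779) and AF067063 gained one (1.56e-07). Without replicate 2 of 2C::GFP+/SA all 4 genes were called, with log2 fold changes of 3.18 (AF067063) to 3.66 (Tcstv3). Without replicate 1 of 2C::GFP+/SA AF067061 alone was called, and the values were 1.28 for Tcstv1, 1.39 for Tcstv3, 1.78 for AF067061 and 0.81 for AF067063. The summed level was 6.97 times that of 2C::GFP+/SGC by group means, 8.99 times within replicate 1 and 3.82 times within replicate 2.

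The full distance from mESC to 2C::GFP+/SA was called for all 4 genes, beside 25.0% of tested genes called higher, and for all 4 whichever library was left out. The log2 fold changes were 10.11 ± 1.37 for Tcstv3 (edgeR adjusted p = 0.0048), 10.83 ± 1.45 for Tcstv1 (0.00288) and 10.99 ± 0.83 for AF067061 (0.000315). Groups did not overlap for any of the 4, as for 37.7% of tested genes. AF067063 was at least 877-fold higher against the floor of 3 counts over mESC (edgeR adjusted p = 0.00136). The summed level was 1150 times that of mESC by group means, but 2742 times within replicate 1 and 367 times within replicate 2, so its size is known far less well than its direction. Without replicate 1 of 2C::GFP+/SA the log2 fold changes of Tcstv1, Tcstv3 and AF067061 were 9.38, 8.59 and 10.09, and without replicate 2 they were 11.56, 10.86 and 11.56. Without replicate 1 of mESC they were 8.43, 9.21 and 11.51, and without replicate 2 of mESC 12.54, 10.42 and 10.92. These comparisons share groups and are not independent of each other.

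**Figure D2:**
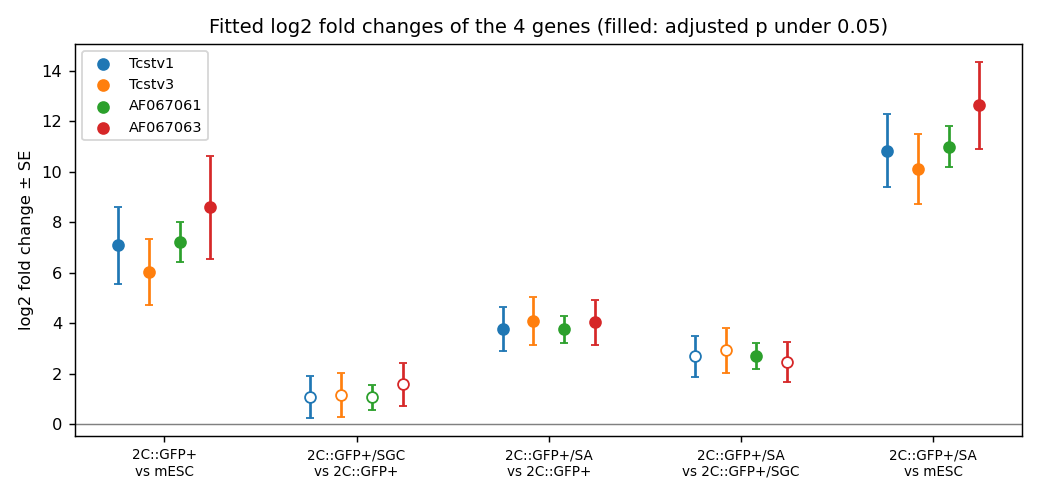
Fitted log2 fold change of each Tcstv gene in the 5 comparisons, with bars of 1 SE and filled points where the edgeR adjusted p was under 0.05. In each comparison the bars of the 4 genes overlap, and no point is filled for 2C::GFP+/SGC against 2C::GFP+. The AF067063 values against mESC depend on the fit, since mESC has no count.

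The libraries of a group differed in a way that ran through the whole family. In 2C::GFP+/SA, replicate 1 was above replicate 2 by 4.82-fold for Tcstv3, 4.34-fold for Tcstv1, 5.27-fold for AF067063 and 2.81-fold for AF067061. In 2C::GFP+/SGC the same ratios were 2.11 for Tcstv3, 1.81 for Tcstv1, 2.57 for AF067063 and 1.18 for AF067061. In untreated 2C::GFP+ they were 1.16, 0.977, 1.10 and 0.887, close to no difference. The median over all tested genes of the log2 ratio in 2C::GFP+/SA was 0.03, and over the 2C-like genes described below it was 1.29. Duxf3, a copy of the Dux gene, had nearly the same level in both 2C::GFP+/SA libraries, 71.6 and 76.6 CPM. The part of sequencing depth in these differences was not tested.

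**Figure D3:**
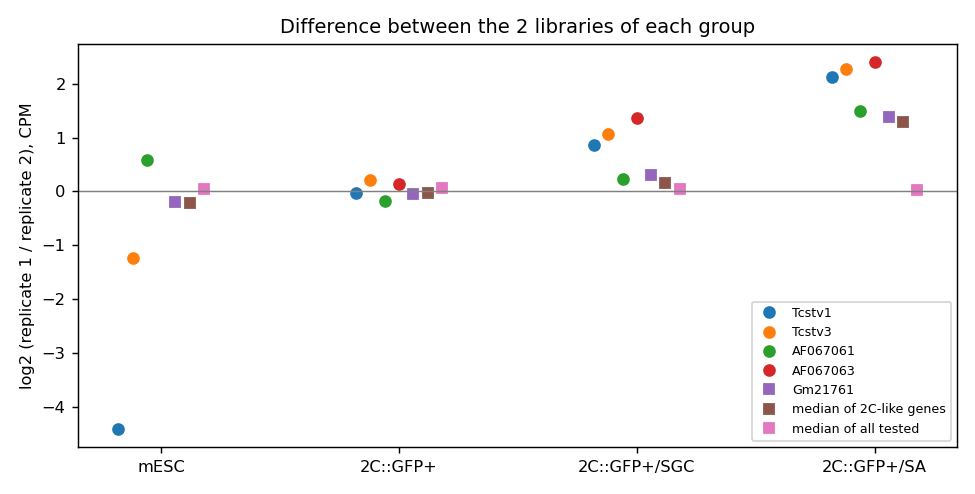
Log2 ratio of replicate 1 to replicate 2 within each group, in TMM-scaled CPM, for the 4 Tcstv genes, the relative Gm21761, and the medians of the 2C-like genes and of all tested genes. In 2C::GFP+/SA the 4 genes lie between 1.49 and 2.40 while the median of all tested genes is 0.03. The mESC ratios rest on few counts, and AF067063 has none there.

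In the reporter cells the make-up of the family differed by replicate number in the same direction in each group. AF067061 took 46.9% of the counts of the 4 genes in replicate 1 of 2C::GFP+ (Wilson 95% interval 45.6 to 48.2) and 52.8% in replicate 2 (49.2 to 56.4). In 2C::GFP+/SGC its share was 42.9% (42.2 to 43.7) in replicate 1 and 56.9% (54.0 to 59.8) in replicate 2, and in 2C::GFP+/SA 42.4% (42.1 to 42.7) and 55.4% (53.8 to 57.0). Intervals cover counting error only. Tcstv3 moved the other way: counts of Tcstv3 per count of AF067061 were 0.911, 1.06 and 1.12 in replicate 1 of the 3 reporter groups and 0.696, 0.595 and 0.656 in replicate 2. Which of the pair had more counts thus differed between replicate numbers in both treated groups, and the part of read assignment between the copies in this was not tested. In mESC, on 52 and 15 counts of the 4 genes, the direction was the reverse: AF067061 took 40.4% (28.2 to 53.9) in replicate 1 and 13.3% (3.74 to 37.9) in replicate 2. Tcstv1 kept a share between 6.95% and 8.96% and AF067063 between 1.25% and 2.42% in these 6 libraries.

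The sequence relatives that passed the filter showed the same order of groups. Of the 6 relatives, 5 passed the filter (Gm21762 had at most 3 counts in any library). All 5 were called higher in 2C::GFP+ than in mESC, and in 2C::GFP+/SA than in 2C::GFP+ or mESC. The shares of all tested genes called higher in these comparisons were 15.2%, 14.9% and 25.0%. Against 2C::GFP+/SGC, 4 of 5 were called higher in 2C::GFP+/SA, beside 7.92% of all tested genes. The exception was Gm21818 (edgeR adjusted p = 0.0611). From 2C::GFP+ to 2C::GFP+/SGC 0 of 5 were called, beside 0.0% of all tested genes. Their median log2 fold change from 2C::GFP+ to 2C::GFP+/SA was 3.91, beside 3.90 for the 4 members and 0.01 for all tested genes. Since members and relatives share sequence, their values are not independent of each other.

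Gm21761 was the most abundant of the array. It had 0.539 and 0.616 CPM in mESC, 83.4 and 86.7 CPM in 2C::GFP+, 199.7 and 160.7 CPM in 2C::GFP+/SGC and 1660 and 641 CPM in 2C::GFP+/SA, that is 3456 and 1679 TPM in the last group. Per length it was therefore above Tcstv3 in both 2C::GFP+/SA libraries. Its log2 fold change in 2C::GFP+/SA was 3.76 ± 0.49 against 2C::GFP+ (edgeR adjusted p = 0.00418) and 2.67 ± 0.46 against 2C::GFP+/SGC (0.0194). AF067061, the closest to it in coding sequence among the 4 members, had values of 3.76 and 2.70 in the same comparisons. The sum of the 4 members and the 6 relatives was 0.976 and 1.44 CPM in mESC, 137.7 and 140.4 CPM in 2C::GFP+, 296 ± 65.6 CPM in 2C::GFP+/SGC and 2923 and 982 CPM in 2C::GFP+/SA. By group means it was 14.0 times as high in 2C::GFP+/SA as in 2C::GFP+, close to the 14.9 times of the 4 members.

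The other 26 genes of the array and the 200 kb on its flank were also compared. Of the 7 tested, 2 were called higher and 2 lower in 2C::GFP+/SA than in 2C::GFP+. The shares of all tested genes called were 14.9% higher and 13.8% lower. BC147527, whose coding sequence is 90.1% identical to that of Tcstv3, and Gm36079 were called higher in 2C::GFP+/SA than in 2C::GFP+, with log2 fold changes of 4.48 ± 0.80 (edgeR adjusted p = 0.017) and 4.10 ± 0.76 (0.0017). The genes with other functions beside the array did not follow. Hmgcs1, an enzyme of sterol synthesis, fell by 0.79 ± 0.13 on the log2 scale (0.00068), and the protein kinase gene Nim1k fell by 2.56 ± 0.53 (0.00268). Zfp131, a zinc finger gene and the nearest tested gene outside the array, differed by 0.40 ± 0.15 (0.0642). The other 19 neighbours had too few counts to test. Among them was B020031M17Rik, inside the array, whose coding sequence is 88.5% identical to that of Tcstv1 and 89.1% to that of AF067061. It had 2 and 0 counts in 2C::GFP+ and 20 and 0 in 2C::GFP+/SA, so likeness in sequence did not go with a high level there.

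**Figure D4:**
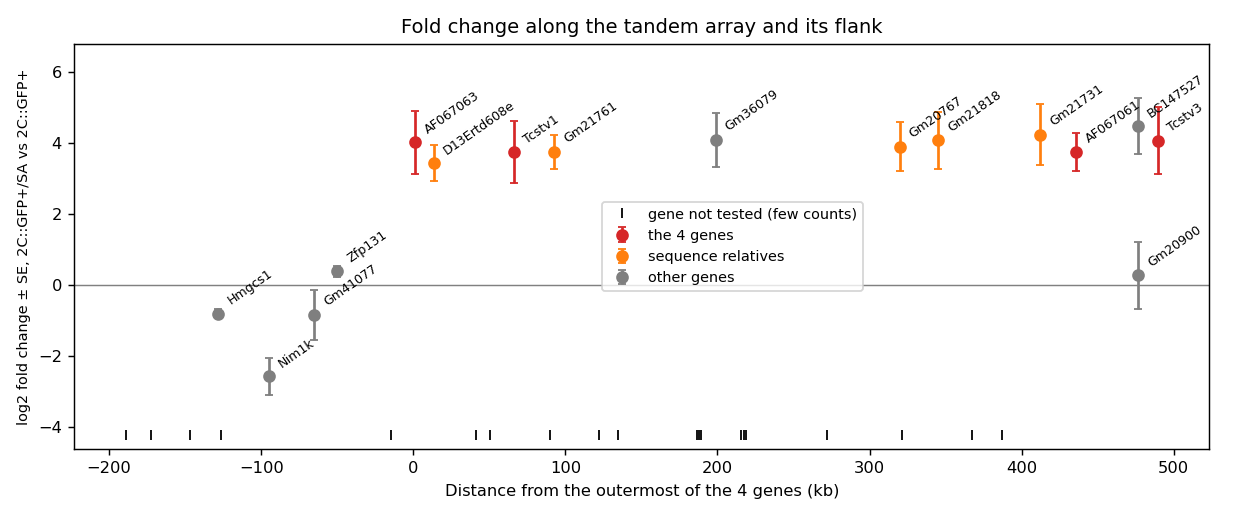
Log2 fold change from 2C::GFP+ to 2C::GFP+/SA, with bars of 1 SE, for each tested gene against its distance in kb from the outer end of AF067063. Members, their 5 tested relatives and BC147527 and Gm36079 lie between 3.44 and 4.48, while the flanking genes Hmgcs1, Nim1k, Gm41077 and Zfp131 lie between -2.56 and 0.40 and the pseudogene Gm20900 at 0.28. Ticks at the bottom are genes with too few counts to test.

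Genes outside the array with the pattern most like the summed level were sought among 11777 tested genes with a mean of at least 5 CPM in their highest group. Likeness was the root mean square difference of the log2 CPM of the 8 libraries after centring. The 5 nearest, leaving out predicted models, were Usp17lc (0.28), Zscan4-ps1 (0.34), Usp17le (0.38), Pramef25 (0.40) and Spesp1 (0.43). Usp17lc and Usp17le, which also stand in the 2C-like list, are copies of a deubiquitinase gene, Zscan4-ps1 is a pseudogene of the Zscan4 family, and Spesp1 encodes a sperm equatorial segment protein. Zscan4-ps1, for one, had 0.415 and 0.719 CPM in mESC, 81.4 and 80.5 CPM in 2C::GFP+, 168.2 and 127.9 CPM in 2C::GFP+/SGC and 1375 and 490 CPM in 2C::GFP+/SA. Its likeness to the Tcstv sum is what chose it.

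The 2C-like list of 30 genes that mark the 2-cell-like state places these changes. It was drawn up with earlier results of these data known and is no independent evidence of direction. Of its 29 tested genes, 27 were called higher and 0 lower in 2C::GFP+ than in mESC, beside 15.2% of all tested genes called higher. In 2C::GFP+/SGC against 2C::GFP+ 0 were called in either direction, beside 0.0% of all tested genes called higher. In 2C::GFP+/SA 27 were called higher than in 2C::GFP+ (14.9% of all tested genes), 13 than in 2C::GFP+/SGC (7.92%) and 29 than in mESC (25.0%). The median log2 fold changes of the list in these comparisons were 6.78, 1.20, 3.59, 2.22 and 10.44. They stand beside member medians of 7.15, 1.11, 3.90, 2.69 and 10.91 and between -0.02 and 0.04 for all tested genes. Zscan4c, a telomere-linked zinc finger gene of the 2-cell stage, rose by 2.73 ± 0.55 (log2) from 2C::GFP+ to 2C::GFP+/SA (edgeR adjusted p = 0.0206). Duxf3 rose by 3.94 ± 0.24 (8.38e-07) and Zfp352, a zinc finger gene of the 2-cell stage, by 4.48 ± 0.48 (0.00118).

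Genes of telomere maintenance changed in both directions. Of 22 listed genes 21 were tested (the telomerase RNA Terc was not). From 2C::GFP+ to 2C::GFP+/SA, 3 were called higher and 3 lower, with a median log2 fold change of -0.12, beside 14.9% of all tested genes called higher and 13.8% lower. Rif1, which binds telomeres and controls replication timing, rose by 0.90 ± 0.14 (edgeR adjusted p = 0.000459), and Tinf2 and Ctc1, subunits of telomere protein complexes, rose by 0.48 and 0.44. Terf1, which encodes the TRF1 protein named above, had 169.9 and 143.5 CPM in 2C::GFP+ and 121.5 and 115.8 CPM in 2C::GFP+/SA. It fell by 0.40 ± 0.13 on the log2 scale (0.0328). Terf2, the other duplex telomere-binding protein gene, fell by 0.55 ± 0.15 (0.0117) and the helicase gene Rtel1 by 0.43 ± 0.13 (0.0264). From mESC to 2C::GFP+/SA, 4 were higher and 7 lower, beside 25.0% of all tested genes called higher and 20.1% lower. Among the 7 lower was Tert, the catalytic subunit of telomerase, which fell by 1.61 ± 0.24 (edgeR adjusted p = 0.000126). From mESC to 2C::GFP+ 2 were higher and 3 lower, beside 15.2% of all tested genes called higher and 9.12% lower. From 2C::GFP+/SGC to 2C::GFP+/SA 2 were higher and 0 lower, beside 7.92% and 8.18%. Between 2C::GFP+ and 2C::GFP+/SGC 0 were called, beside 0.0% of all tested genes.

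Marker lists describe the cells behind these values. The 8 pluripotent cell markers were present in every library, with summed levels of 4730 to 5102 CPM in mESC, 4531 to 5527 CPM in 2C::GFP+, 3891 to 4103 CPM in 2C::GFP+/SGC and 3304 to 3869 CPM in 2C::GFP+/SA, and 5 of 8 were called lower in 2C::GFP+/SA than in 2C::GFP+, beside 13.8% of all tested genes. Of 7 primitive endoderm markers, 6 were called higher in the same comparison, beside 14.9% of all tested genes, the share that also stands beside the counts of the next lists. In replicates 1 and 2 their summed level was 5.34 and 6.31 CPM in mESC and 6.16 and 13.4 CPM in 2C::GFP+. It was 10.1 and 21.5 CPM in 2C::GFP+/SGC and 70.8 and 129.5 CPM in 2C::GFP+/SA. Replicate 2 was thus the higher in every group, and none of the markers was at 0 in 2C::GFP+/SA. Of 8 fibroblast markers 4 were tested and 3 called higher, with summed levels of 9.21 to 9.51 CPM in 2C::GFP+ and 27.6 to 34.3 CPM in 2C::GFP+/SA, and Col3a1, Postn, Twist2 and Lum were at 0 in replicate 2 of the latter but 0 of the 8 were at 0 in its deeper replicate 1. Of 8 trophoblast markers 7 were tested and 2 called higher. Their summed levels were 38.7 to 44.3 CPM in 2C::GFP+ and 40.8 to 57.6 CPM in 2C::GFP+/SA, below the 107.1 to 121.1 CPM of mESC. In 2C::GFP+/SA against mESC 1 was called higher and 4 lower, beside 25.0% and 20.1% of all tested genes. The part of such cells in the Tcstv values was not tested.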

How the data were processed

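The authors deposited 1 table of read counts per gene and 1 of TPM values, each with 8 columns, 1 per library. The submitters' processing notes name STAR 2.7.4a, featureCounts 2.0.0, Trim Galore 0.6.5, FastQC 0.11.9 and Cell Ranger, and the builds mm10 and GRCm38. Not given in the sources used here are the annotation release, the strand setting and how reads with several matches were treated. Values of the deposited count table are whole numbers that the authors did not normalize. From these, with 1 length per gene, the deposited TPM follow (lengths differ by up to 1.3e-06, log2). 6 columns carry the name of their group, and 2 (named for a serum replacement) were taken as untreated 2C::GFP+, the group left over, with 0 columns left out. Of the identifiers, 55480 are in GENCODE M21 and 93 are not.

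All 8 libraries entered 1 robust quasi-likelihood fit by group in edgeR 4.0.16 (R 4.3.3), after filterByExpr and TMM scaling (factors 0.942 to 1.059, 4 residual degrees of freedom, common biological coefficient of variation 20.6%). Two-sided p-values were adjusted by Benjamini-Hochberg within each of 5 comparisons, over the 20608 genes tested, with a threshold of 0.05. SE is the size of the log2 fold change over the root of F. Degrees of freedom differ between genes under the robust fit, so genes with equal fold over SE can have unequal p. Sums over genes were described without a test. Alternatives were DESeq2 1.42.0, other filters, limma 3.58.1 on TPM, a replicate block, fits to the 4 libraries compared and each library left out. A group at 0 was set to 3 counts for a lower bound.

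Named genes are the 4 members, their relatives and neighbours, the 5 most alike in pattern, and from the 2C-like and telomere lists up to 3 called genes of smallest adjusted p and 1 in the other direction, with Zscan4c, Duxf3, Zfp352 and Terf1 always eligible. Rtel1, Ctc1 and Tert were named after their values were seen. The members and lists were chosen with earlier results of these data known.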

Additional observations from a re-analysis of the deposited data

How the results depend on the processing

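No direction of a member or of the sum reversed under any of the alternatives. From mESC to 2C::GFP+/SA all 4 members were called under all 15 alternatives. Elsewhere the number called depended on the fit. Without a filter on low counts, 2 of the 4 were called from mESC to 2C::GFP+, 1 from 2C::GFP+ to 2C::GFP+/SGC and 2 from 2C::GFP+ to 2C::GFP+/SA, in place of 4, 0 and 4, and for 2C::GFP+/SA against 2C::GFP+/SGC the 1 gene called was AF067063 in place of AF067061. With only the 4 libraries compared, 1 was called from 2C::GFP+ to 2C::GFP+/SGC and 0 from 2C::GFP+/SGC to 2C::GFP+/SA, in place of 0 and 1. For 2C::GFP+/SA against 2C::GFP+/SGC, DESeq2 called 2 and limma on log2(TPM + 1) called 3. The cause was not tested. With each library left out, the number called ranged from 0 to 4 for 2C::GFP+ against mESC, 0 to 1 for 2C::GFP+/SGC against 2C::GFP+, 0 to 4 for 2C::GFP+/SA against 2C::GFP+ and 0 to 4 for 2C::GFP+/SA against 2C::GFP+/SGC. Leaving out a library also leaves fewer degrees of freedom, and a group of 1 library is then assumed to vary like the others.

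With the replicate block, 2 members were called for 2C::GFP+/SA against 2C::GFP+/SGC (AF067063 at an edgeR adjusted p of 0.00205 was added), and the block changed the number called in no other comparison. Deviations of same-numbered libraries correlated across genes at 0.041 to 0.142 over the 6 pairs of groups. The labels do not say what the number marks, and replicate 1 was the deeper library in every group. The log2 ratio of the summed level moved over 2.67 to 4.55 for 2C::GFP+/SA against 2C::GFP+ and 5.85 to 6.87 for 2C::GFP+ against mESC. The 4 members together had only 52 and 15 counts in mESC, so folds against mESC rest on few counts.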
